A study of Mus musculus with 8 samples.

Results

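Of the ion channel genes measured in subcutaneous white fat of mice, 33 were detected at a mean of at least 0.5 TPM (a level per length of the gene, as a share of its library). They were chosen by name and by that measured mean over the 7 libraries, out of 125 rows whose symbol marks a potassium, sodium, calcium, TRP, chloride, Piezo or P2X channel gene, in a table of 50952 rows. Chloride channels and exchangers of the CLC family, the mechanically gated channel Piezo1 and the ATP-gated channel P2rx4 were the most abundant, and every row analysed here of a sodium or calcium channel pore lay below the limit. Clcn4 was the single channel gene of the 33 that was called lower under calorie restriction on the deposited scale, where 11.6% of all tested genes were. Relative to the typical gene it was not called. A set of 6 channel genes was high in 1 library, named AL2, together with genes of skeletal muscle. Kcng4 is among the 6, and with all libraries it was not called on either scale. Leaving out AL2 takes away its highest value, which moves its change upward. Without AL2, with 2 AL libraries left, it was called higher under restriction on the deposited scale but not relative to the typical gene.

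The mice were wild-type C57BL/6J, either fed ad libitum (AL) or put on calorie restriction (CR) when 3 months old and kept on it for 6 months, and all were sampled when 9 months old. The tissue was the whole subcutaneous white fat depot, with fat cells, vessels, nerves and immune cells together. The study asked how restriction alters gene expression and splicing in this tissue. Of 8 labelled mice (4 on each diet), 7 have a library in the table: AL2, AL3 and AL4 for the 3 AL mice and CR1 to CR4 for the 4 CR mice. Rows with a deposited false discovery rate (FDR, an adjusted p-value by the authors) under 0.05 were not analysed here. Of 178 channel symbols of these families in the GENCODE M21 annotation, 125 had a row, and 19 of these rows were at 0 in every library. Genes with the strongest deposited difference between the diets are therefore outside what follows.

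The libraries were checked against marker genes of the labelled tissue and of other cell types. Fat cell markers, of which 5 of 8 had a row, summed to 13820 to 17840 TPM in AL and 13040 to 15090 TPM in CR. Recovered reads in rows with a known gene length ranged from 4147850 to 8897790 per library. AL2 stood apart in skeletal muscle genes: Myh1, a myosin of fast muscle fibres and the one gene of a 10-gene muscle list with a row, was at 64.2 TPM there and at 0.325 to 9.80 TPM in the other 6 libraries. Results that rest on AL2 are given below with and without it. None of the 8 fibroblast markers had a row. Lymphocyte markers summed to 4.28 to 13.2 TPM in AL and 2.499 to 9.07 TPM in CR, epithelial markers to 2.54 to 5.19 and 1.73 to 11.5 TPM, with Krt5 and Krt14 at 0 except in CR4, and mesothelial markers to 3.66 to 5.29 and 3.43 to 5.49 TPM.

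Ion channels are membrane proteins that let ions pass when voltage, a ligand or mechanical force opens them. Potassium channels hold the resting membrane potential, P2X receptors open to extracellular ATP, Piezo channels open to membrane stretch, and CLC proteins are either chloride channels of the cell surface or chloride-proton exchangers of endosomes and lysosomes. In fat, calcium entry and membrane potential bear on hormone secretion and lipid breakdown in the fat cell and on the tone of its vessels. Fewer cells of a type and less RNA per cell cannot be told apart in RNA of a whole tissue.

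Channel genes were mostly low in this tissue. Their median level was 2.21 TPM against 5.66 TPM over the 12768 genes with a mean of at least 0.5 TPM, and the median channel gene stood at percentile 34.4 of those genes. A mean of at least 25 TPM was reached by 4 of the 33 genes, at least 5 TPM by 8 and at least 1 TPM by 22. The other 11 lay under 1 TPM, and 12 genes had fewer than 50 recovered reads in every library. Just inside the limit were Cacna2d3 with a mean of 0.527 TPM and Kcnj13 with 0.568 TPM, and just outside it were Kcnab3 with 0.489 TPM and Cacna1g with 0.487 TPM. The limit acts on a mean over both diets: 5 genes had a CR mean under it (Clcn1, Kcnf1, Scn3b, Kcnj13 and Cacna2d3) and 0 had an AL mean under it, so those 5 passed through their AL libraries. Without AL2, Clcn1 and Kcnf1 would have means of 0.230 and 0.0443 TPM.

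**Figure D1:**
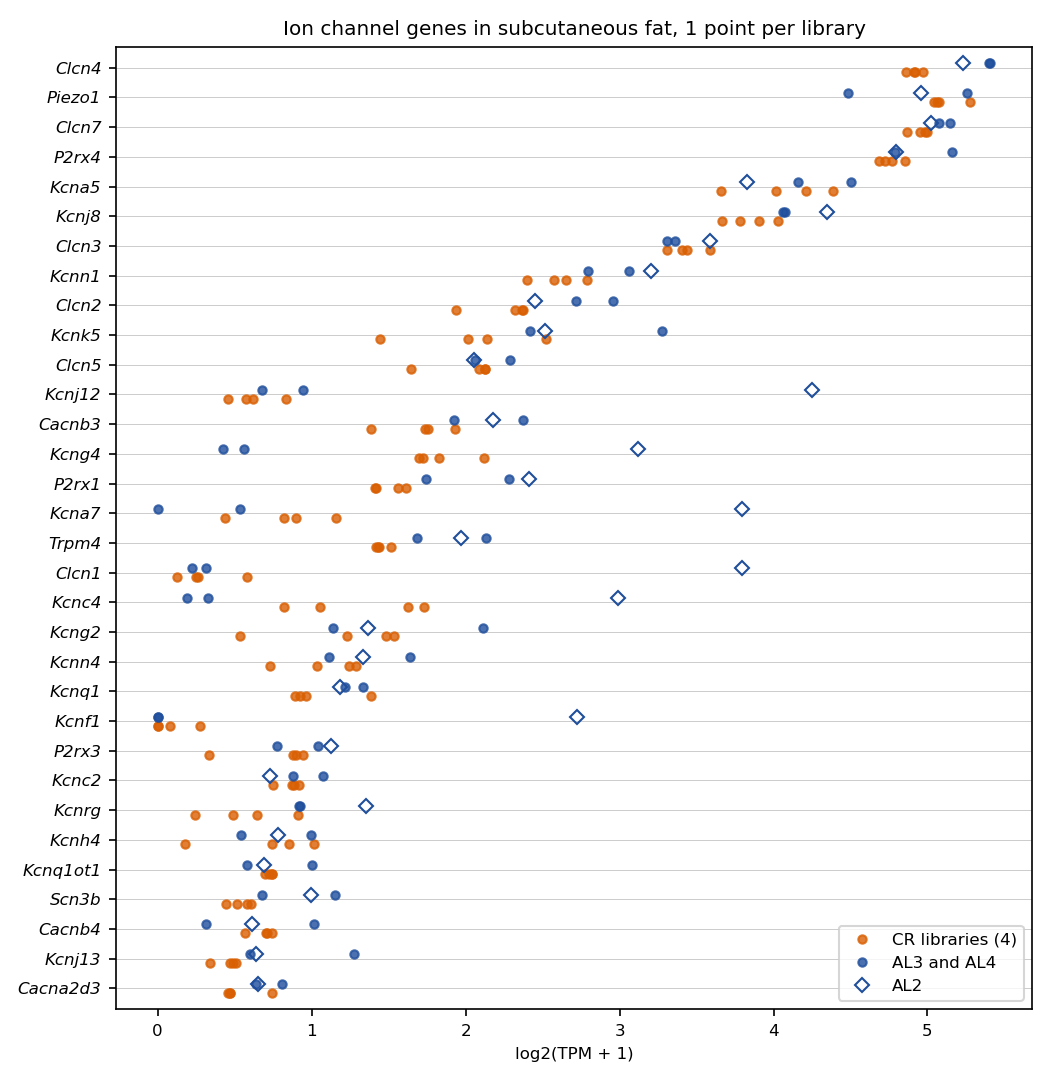
Level of 32 of the 33 ion channel genes in each library, as log2(TPM + 1), ordered by mean. Blue dots are AL3 and AL4, open blue diamonds AL2 and orange dots the 4 CR libraries. A reader should see 6 genes (Kcnj12, Kcng4, Kcna7, Clcn1, Kcnc4 and Kcnf1) whose AL2 diamond lies far to the right of every other point.

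The families differed in how many of their rows passed the limit. The CLC family had 6 of 8 rows, P2X receptors 3 of 4, calcium channel beta subunits 2 of 3, inward rectifiers 3 of 11 and pore-forming subunits of voltage-gated potassium channels 9 of 30. Below it lay every row analysed here of the sodium channel alpha subunits (6 rows), the pore-forming calcium channel subunits (5 rows), the calcium channel gamma subunits (5 rows), the potassium channel accessory subunits (13 rows) and the TRPV channels (2 rows). The M21 annotation lists 10, 10, 8, 19 and 6 genes in these families, in that order. Those without a row were not analysed, so their level in this tissue is not known here. One member, Kcnq1ot1, is a long antisense RNA of the imprinted Kcnq1 locus and makes no channel. Another, Kcnrg, encodes a regulator that interferes with the assembly of potassium channels. The remaining auxiliary members, Scn3b, Cacna2d3, Cacnb3 and Cacnb4, encode subunits that accompany a pore.

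The diet comparison was made with limma on log2(TPM + 1) over all 12768 genes, with Benjamini-Hochberg adjustment. The rows analysed here shifted as a whole, with a median log2 change of −0.20 from AL to CR, so each change is also given relative to the typical gene, after median-ratio scaling of the libraries. On the deposited scale 1 of the 33 channel genes was called lower at an adjusted p under 0.05, where 11.6% of all tested genes were, and 0 were called higher, where 0.392% were. At an unadjusted p under 0.05 there were 8 lower, against 27.8% of all genes, and 0 higher, against 2.19%. The median channel gene changed by −0.29, with 28 of 33 below 0, beside 72.0% of all tested genes. The 28 include the 5 genes that passed the limit through their AL libraries. Without AL2 the median channel gene changed by −0.215, with 25 of 33 below 0, beside −0.215 and 73.0% for all tested genes. After scaling of all libraries the median was −0.11 for channel genes, with 21 of 33 below 0, beside −0.02 and 52.4% for all tested genes. With scaling and AL2 left out the median was −0.03 against −0.02.

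Relative to the typical gene, 0 channel genes were called, where 0.0157% of all tested genes were called lower and 0.0392% higher. At an unadjusted p under 0.05, 2 were lower (Clcn4 and P2rx1), against 11.3% of all genes, and 1 was higher (Piezo1), against 13.4%. A limma-voom fit of reads recovered from the TPM steps also called 0 of 33, with 3 lower at an unadjusted p under 0.05, against 13.1% of all genes, and 1 higher, against 14%. The libraries of the diets did not overlap for 11 genes that were lower in CR on the deposited scale (26.4% of all genes) and 0 that were higher (2.26%). The 11 include Scn3b and Kcnj13, which passed the limit through their AL libraries. After scaling the counts without overlap were 3 lower (10.9% of all genes) and 1 higher (11.9%). Set against those shares, the counts are not a result about channel genes as a group.

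**Figure D2:**
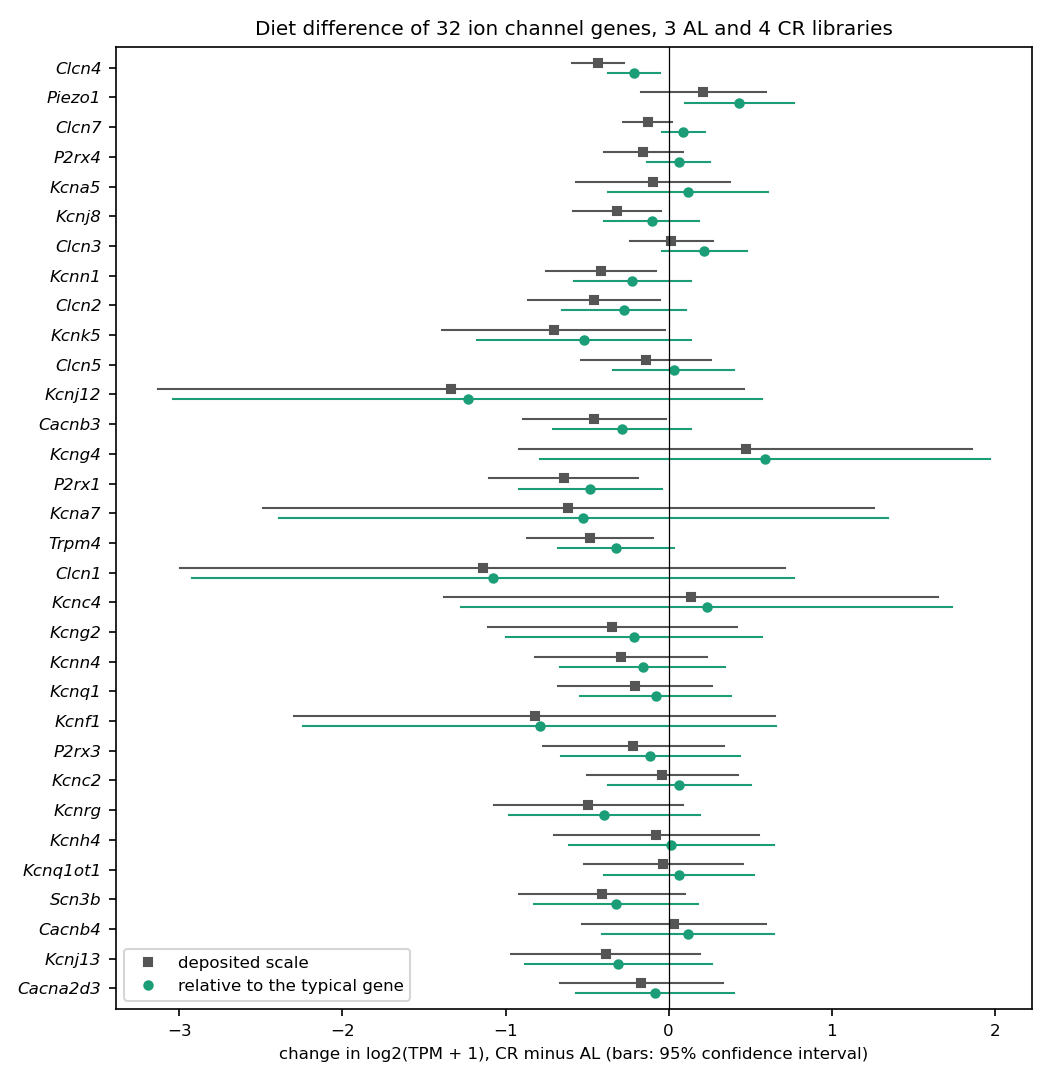
Difference between the diets for 32 of the 33 ion channel genes, as the change in log2(TPM + 1) from AL to CR with its 95% confidence interval, for 3 AL and 4 CR libraries. Grey squares are on the deposited scale and green circles relative to the typical gene. The interval of Clcn4 lies below 0 on both scales, that of Piezo1 lies above 0 relative to the typical gene, and the 6 widest intervals belong to the genes that were high in AL2.

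The 6 CLC genes held 36.0% to 43.4% of the summed TPM of the 33 genes in each library, and the 17 genes with a Kcn symbol held 23.4% to 38.0%. Clcn4, a chloride-proton exchanger of endosomal membranes, was at 36.6, 41.5 and 41.2 TPM in AL2, AL3 and AL4 and at 30.4, 29.1, 28.0 and 29.2 TPM in CR1 to CR4. All CR libraries lay below all AL libraries, and this remained so after scaling (34.4 to 38.7 against 29.4 to 32.95 TPM). Clcn4 fell by 0.43 ± 0.07 (log2, SE) on the deposited scale (limma adjusted p = 0.018) and by 0.49 without AL2 (limma adjusted p = 0.0239). It did not pass without CR1 (limma adjusted p = 0.0532), without CR2 (0.0564), without a variance trend (0.0524) or in the voom fit (0.0903). Relative to the typical gene the change was −0.21 (95% interval −0.37 to −0.05) with a limma adjusted p of 0.128, which did not pass. Of its 8575 exon bases, 985 are shared with a gene on the opposite strand, Gm45631, and the strand setting of the counting is not given in the sources used here. The authors' deposited table gives Clcn4 an FDR of 0.303.

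The other CLC genes did not pass the test. Clcn7, the exchanger of lysosomes, was at 31.4, 34.4 and 32.6 TPM in AL and 28.1, 29.97, 30.7 and 30.9 TPM in CR. Those groups did not overlap as deposited and overlapped after scaling, with a relative change of 0.09 (95% interval −0.04 to 0.22). Clcn7 also varied least of all channel genes, with a coefficient of variation of 6.37% over the 7 libraries. Clcn3, an endosomal exchanger, was at 11.0, 9.28 and 8.89 TPM in AL and 8.91, 9.57, 9.84 and 11.0 TPM in CR, and its relative change was 0.22 (95% interval −0.04 to 0.48). Clcn2, a chloride channel of the cell surface, was at 4.47, 6.75 and 5.58 TPM in AL and 4.15, 4.18, 2.83 and 4.00 TPM in CR. Its CR libraries lay below its AL libraries as deposited and overlapped them after scaling (limma adjusted p = 0.124, relative change −0.27, 95% interval −0.65 to 0.11). Clcn5, an exchanger known from the kidney tubule, ranged from 2.13 to 3.90 TPM with overlapping groups. Clcn1, the chloride channel of skeletal muscle, is described with the genes that were high in AL2.

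Piezo1, a channel opened by membrane stretch that is known in endothelial cells and in fat cells, was at 30.1, 37.2 and 21.4 TPM in AL2, AL3 and AL4 and at 32.4, 31.9, 37.7 and 32.6 TPM in CR1 to CR4. The AL libraries were spread widely and the groups overlapped on the deposited scale (log2 change 0.21 ± 0.17, limma adjusted p = 0.423). After scaling, the AL libraries stood at 20.1 to 31.7 and the CR libraries at 34.1 to 39.5 TPM, with no overlap. The relative change was 0.43 (95% interval 0.10 to 0.77, limma unadjusted p = 0.0176, adjusted p = 0.134), which did not pass, and 0.48 ± 0.17 without AL2. Of 8 endothelial markers 6 had a row, and their summed level on the deposited scale was 345 to 390 TPM in AL and 266 to 324 TPM in CR. Relative to the typical gene the median change of these 6 was −0.10. Kdr was at 0.21 and Emcn at 0.07, while Tek was at −0.32, Pecam1 at −0.21, Erg at −0.12 and Cdh5 at −0.08. Their part in the Piezo1 values was not tested. Of the 9935 exon bases of Piezo1, 2441 are shared with Ctu2 on the opposite strand, so part of its reads could belong to that gene. In the authors' deposited table the FDR of Piezo1 was 0.0627, the smallest of the 33. Piezo2 had a mean of 0.380 TPM, below the limit.

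The P2X receptors open to extracellular ATP. P2rx4, known in macrophages and other cells with large lysosomes, was at 26.8, 34.8 and 26.6 TPM in AL and 25.4, 28.0, 24.8 and 26.3 TPM in CR. AL3 alone stood above the rest, and the relative change was 0.06 (95% interval −0.13 to 0.26). P2rx1, known from platelets and smooth muscle, was at 4.32, 3.87 and 2.34 TPM in AL and 1.95, 1.68, 2.06 and 1.66 TPM in CR. All CR libraries were lower than all AL libraries on both scales. The change of P2rx1 was −0.64 ± 0.20 on the deposited scale (limma adjusted p = 0.0719) and −0.48 relative to the typical gene (95% interval −0.92 to −0.04, limma adjusted p = 0.173), so it did not pass. It rests on 13 to 48 reads per library. P2rx3, known from sensory neurons, ranged from 0.263 to 1.19 TPM with overlapping groups.

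Of 8 markers of myeloid cells 2 had a row, Clec4b1 and Itgam. Their sum was 8.34 to 9.21 TPM in AL and 2.40 to 5.32 TPM in CR and was nearly all Clec4b1, since Itgam was at 0 in 5 libraries. Their part in the P2rx1 values was not tested.

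Among TRP genes, Trpm4 encodes a cation channel opened by intracellular calcium. It was at 2.92, 3.39 and 2.22 TPM in AL and 1.71, 1.67, 1.69 and 1.85 TPM in CR. The CR libraries were close together and below all AL libraries on both scales, with a deposited-scale change of −0.48 ± 0.17 (limma adjusted p = 0.101) and a relative change of −0.32 (95% interval −0.68 to 0.03), so the test was not passed.

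**Figure D3:**
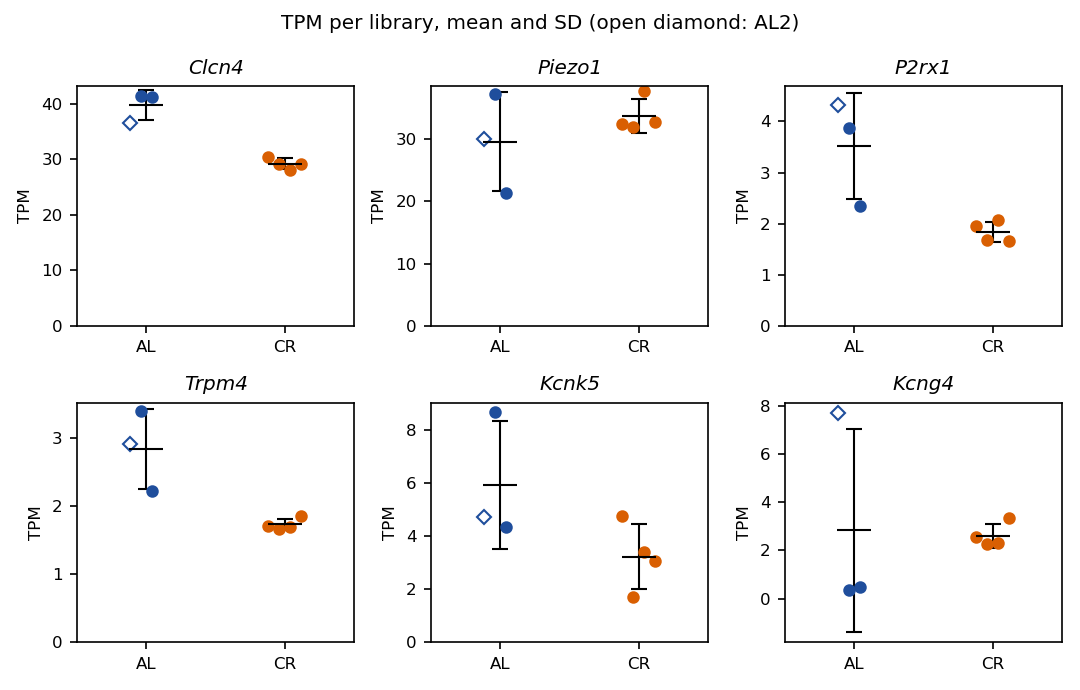
TPM per library for 6 ion channel genes, with the mean (wide bar) and SD (error bar) of 3 AL (blue, open diamond for AL2) and 4 CR libraries (orange). The CR points of Clcn4, P2rx1 and Trpm4 lie below all AL points, the AL points of Piezo1 spread from 21.4 to 37.2 TPM, and Kcng4 has 1 high and 2 low AL points.

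Potassium channel genes that were not high in AL2 were led by Kcna5 and Kcnj8. Kcna5, a delayed rectifier known from heart and vessels, was at 13.2, 16.9 and 21.7 TPM in AL and 17.6, 19.9, 11.6 and 15.2 TPM in CR. It varied as much within each diet as between them, with a relative change of 0.12 (95% interval −0.37 to 0.61). Kcnj8, the pore of the ATP-sensitive potassium channel of vascular smooth muscle and pericytes, was at 19.4, 15.7 and 15.8 TPM in AL and 11.7, 15.3, 14.0 and 12.7 TPM in CR. Its groups did not overlap as deposited (limma adjusted p = 0.118), and the relative change was −0.10 (95% interval −0.39 to 0.19), with overlap. Pericyte and smooth muscle markers, of which Rgs5, Notch3 and Cnn1 of 9 had a row, summed to 150 to 160 TPM in AL and 101 to 132 TPM in CR. Most of that sum was Rgs5, at 119.4 to 134.5 TPM in AL and 79.7 to 108.1 TPM in CR. Relative to the typical gene Rgs5 was at −0.30 and Cnn1 at −0.49, while Notch3, with overlapping groups, was at 0.05. The part of these markers in the Kcnj8 values was not tested.

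Kcnn1 and Kcnn4 encode potassium channels opened by intracellular calcium. Kcnn1, a small-conductance channel, was at 8.23, 5.94 and 7.33 TPM in AL and 4.28, 4.95, 5.29 and 5.91 TPM in CR. As deposited the lowest AL library, AL3, lay just above the highest CR library, CR4 (limma adjusted p = 0.103), and the groups overlapped after scaling. Kcnn4, the intermediate-conductance channel of T cells, macrophages and red cells, ranged from 0.656 to 2.12 TPM with overlapping groups. Kcnk5, a background potassium channel sensitive to external acid, was at 4.71, 8.67 and 4.36 TPM in AL and 4.74, 1.72, 3.41 and 3.05 TPM in CR. AL3 was 1.83 times the next library, CR2 was lowest and the groups overlapped (limma adjusted p = 0.156 on the deposited scale, relative change −0.52, 95% interval −1.18 to 0.14).

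The low potassium channel genes gave no difference that passed the test. Kcng2, a modifier subunit that is silent alone, ranged from 0.448 to 3.33 TPM, and Kcnq1, a channel of heart and epithelia, from 0.853 to 1.61 TPM. Kcnc2 and Kcnh4, both known from brain, ranged from 0.661 to 1.10 and from 0.131 to 1.02 TPM. Kcnrg was at 1.55, 0.899 and 0.891 TPM in AL and 0.883, 0.402, 0.566 and 0.183 TPM in CR, with 1 to 12 reads per library. Its groups did not overlap as deposited, and the relative change was −0.40 (95% interval −0.98 to 0.19). Kcnj13, an inward rectifier of epithelia, rested on 1 to 10 reads and shares 623 of its 1270 exon bases with Gigyf2 on the opposite strand. Kcnq1ot1 ranged from 0.497 to 1.00 TPM and, being 93092 exon bases long, still held 182 to 285 reads per library.

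Auxiliary subunits of sodium and calcium channels were low as well. Cacnb3, a cytoplasmic subunit that brings calcium channel pores to the membrane, was at 3.53, 4.17 and 2.79 TPM in AL and 2.81, 2.38, 1.61 and 2.34 TPM in CR. AL4 and CR1 lay side by side and the rest of the groups were apart (limma adjusted p = 0.153, relative change −0.29, 95% interval −0.71 to 0.14). Scn3b, a sodium channel beta subunit, was at 0.994, 0.601 and 1.23 TPM in AL and 0.492, 0.358, 0.520 and 0.429 TPM in CR, on 7 to 37 reads per library. All CR libraries lay below the AL libraries as deposited and overlapped them after scaling (limma adjusted p = 0.257). Scn3b had a CR mean of 0.450 TPM and passed the limit through its AL libraries, which favours a lower level in CR. Of 8 Schwann cell and nerve markers 4 had a row. Sox10, the regulator of the glial lineage, was at 7.43, 9.25 and 11.0 TPM in AL and 7.40, 3.68, 5.25 and 6.80 TPM in CR, and Mbp, a myelin protein, was at 51.2 to 96.6 TPM in AL and 44.4 to 70.5 TPM in CR. Their part in the Scn3b values was not tested. Cacnb4 and Cacna2d3 ranged from 0.242 to 1.02 and from 0.370 to 0.752 TPM with overlapping groups.

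The channel genes that stood apart in AL2 were found by a rule, a level in AL2 of over 2 times that in every other library. It held for 6 of the 33 channel genes, beside 219 of the 12768 tested genes (1.72%). They were Kcnj12, Kcna7, Clcn1, Kcng4, Kcnc4 and Kcnf1, and together they made up 64.1 TPM in AL2 and 1.70 to 7.39 TPM in each of the other libraries. In AL2 they were 23.2% of the channel total. Since this rule read the same values, those values are a description. Of the channel rows below the limit, Kcnc1 was also at 1.95 TPM in AL2 and at most 0.173 TPM elsewhere.

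Promoter sequence is shown for the 3 of these genes with the most E-boxes (the letters CANNTG, bound by many factors, among them the myogenic factor Myod1), since Myod1 RNA was itself high in AL2, and for Piezo1 as a contrast from the abundant channels. The windows come from RefSeq (build GRCm38.p6) and run from 250 bases before to 50 bases after a transcript's start. They lie at chr6:42286435-42286734 on the plus strand for Clcn1, chr7:45405710-45406009 on the plus strand for Kcna7, chr11:61065554-61065853 on the plus strand for Kcnj12 and chr8:122551280-122551579 on the minus strand for Piezo1. Each reads 5′ to 3′ along the gene, with E-boxes in capitals.
Clcn1: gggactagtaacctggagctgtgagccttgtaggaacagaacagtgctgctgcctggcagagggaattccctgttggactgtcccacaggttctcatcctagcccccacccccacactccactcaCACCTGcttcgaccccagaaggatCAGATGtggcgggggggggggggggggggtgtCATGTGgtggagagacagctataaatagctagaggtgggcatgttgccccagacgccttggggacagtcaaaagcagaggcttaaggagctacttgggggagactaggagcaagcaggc
Kcna7: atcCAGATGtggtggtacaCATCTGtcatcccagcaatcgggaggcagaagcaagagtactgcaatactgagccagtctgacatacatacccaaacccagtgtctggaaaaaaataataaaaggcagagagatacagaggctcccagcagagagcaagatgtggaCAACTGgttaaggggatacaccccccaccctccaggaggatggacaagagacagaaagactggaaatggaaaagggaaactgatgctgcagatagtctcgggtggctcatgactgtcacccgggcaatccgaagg
Kcnj12: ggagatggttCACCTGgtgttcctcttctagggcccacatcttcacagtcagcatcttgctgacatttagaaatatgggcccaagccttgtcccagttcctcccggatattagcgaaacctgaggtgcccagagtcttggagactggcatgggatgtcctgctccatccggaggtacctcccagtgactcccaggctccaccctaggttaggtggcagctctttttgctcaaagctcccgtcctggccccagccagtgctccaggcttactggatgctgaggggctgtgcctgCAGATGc
Piezo1: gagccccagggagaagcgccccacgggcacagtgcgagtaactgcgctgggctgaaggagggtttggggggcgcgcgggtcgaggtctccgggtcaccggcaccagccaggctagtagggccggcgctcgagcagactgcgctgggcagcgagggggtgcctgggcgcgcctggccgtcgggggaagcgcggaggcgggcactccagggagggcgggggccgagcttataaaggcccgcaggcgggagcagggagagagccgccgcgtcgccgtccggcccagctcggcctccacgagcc

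RefSeq windows were matched for 27 of the 33 genes (38 windows). The Clcn1 and Kcna7 windows hold 3 E-boxes each and the Kcnj12 window 2, while Kcnc4 and Kcng4 have 1 each and Kcnf1 and Piezo1 have 0. Channel genes that were not high in AL2 hold as many or more, with 4 in each Kcnn1 window, 4 and 3 for Clcn5 and 3 for Kcnq1ot1. Among the abundant channels, the windows of Clcn4, Clcn7, P2rx4 and Kcna5 hold 1 or 2 each. An E-box reads the same on both strands, and 72.3% of all 32851 windows hold at least 1, as do 33 of the 38 channel windows, so a match is common. A MEF2 motif, searched on both strands, was found in 1 channel window, that of Clcn1, and in 0.557% of all windows. The windows also differ in CpG dinucleotides: those of the 6 genes hold 3 to 17, with 5 of 6 at no more than 4. Among the other 32 channel windows 4 hold no more than 4 and the median is 11, and over all windows 38% hold no more than 4. The Piezo1 window holds 34 CpG at a GC content of 75.0%.

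Kcnj12, an inward rectifier of excitable cells, was at 18.02 TPM in AL2, 0.596 and 0.920 TPM in AL3 and AL4 and 0.782, 0.533, 0.375 and 0.487 TPM in CR1 to CR4. Kcna7, a voltage-gated potassium channel of muscle, was at 12.9, 0.451 and 0 TPM in AL and 0.862, 1.23, 0.355 and 0.767 TPM in CR. Clcn1, the channel behind the resting chloride conductance of skeletal muscle fibres, was at 12.9, 0.242 and 0.167 TPM in AL and 0.198, 0.0900, 0.190 and 0.493 TPM in CR. For these 3 genes AL2 was 19.6, 10.4 and 26.2 times the next library, and the other 6 libraries overlapped. Kcnf1, a silent modifier subunit, was at 5.62 TPM in AL2, on 114 reads, at 0 in AL3, AL4, CR2 and CR3 and at 0.0561 and 0.210 TPM in CR1 and CR4.

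**Figure D4:**
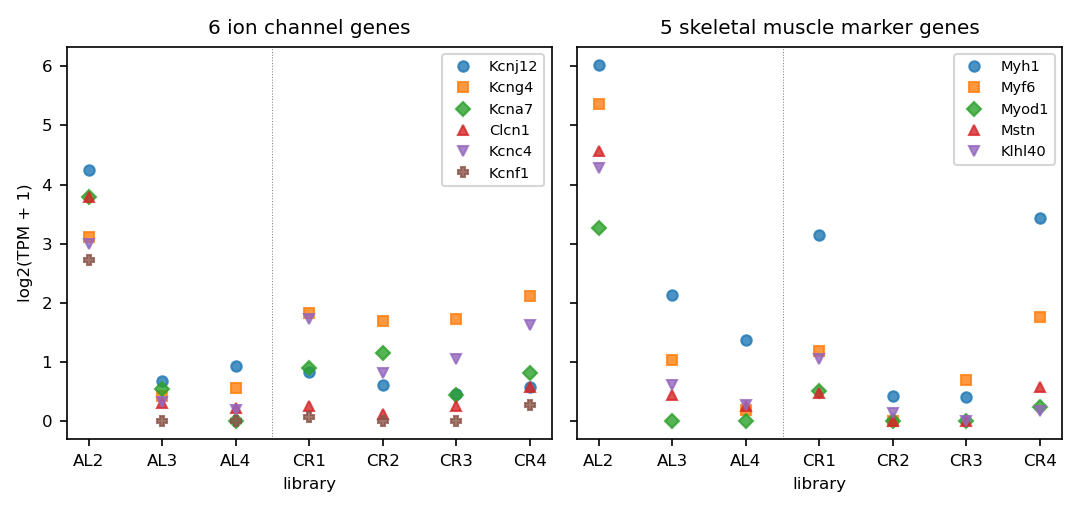
Level in each library, as log2(TPM + 1), of 6 ion channel genes (left) and of 5 skeletal muscle marker genes (right). Both panels are highest in AL2, and among the remaining libraries Kcng4 and Kcnc4 are higher in CR1 to CR4 than in AL3 and AL4.

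Skeletal muscle genes moved with this set. From a list of 63 muscle genes drawn up after the values of AL2 were seen, 22 had a row, AL2 was the highest library for 18 of them and was over 2 times the next for 16. Their sum was 156.9 TPM in AL2 and 10.2 to 32.1 TPM elsewhere. Among them Myod1, the regulator that commits cells to muscle, was at 8.62 TPM in AL2 and at most 0.433 TPM elsewhere, Myf6 was at 40.2 against at most 2.38 TPM, and Mstn, the muscle growth inhibitor myostatin, was at 22.6 against at most 0.495 TPM. Myod1 was at 0 in AL3, AL4, CR2 and CR3, and Mstn in CR2 and CR3. The part of muscle RNA in the channel values of AL2 was not tested.

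With AL2 in the comparison, 4 of these genes had a negative change between the diets on the deposited scale, and with it left out the values differed. The change of Clcn1 went from −1.14 ± 0.81 to 0.04 ± 0.23, of Kcnf1 from −0.82 to 0.09, of Kcna7 from −0.62 to 0.56 and of Kcnj12 from −1.33 to −0.19. None of these passed the test with or without AL2.

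Kcng4 and Kcnc4 had a second pattern beside the AL2 value. Kcng4, a silent subunit that modifies other potassium channels, was at 7.69 TPM in AL2, 0.345 and 0.475 TPM in AL3 and AL4 and 2.54, 2.25, 2.31 and 3.34 TPM in CR1 to CR4. Kcnc4, a fast-inactivating voltage-gated potassium channel, was at 6.95, 0.256 and 0.141 TPM in AL and 2.31, 0.764, 1.08 and 2.09 TPM in CR. For both genes all CR libraries lay above AL3 and AL4 and below AL2. With all libraries the relative changes were 0.59 (95% interval −0.79 to 1.97) for Kcng4 and 0.23 (95% interval −1.27 to 1.74) for Kcnc4.

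With AL2 left out, 2 AL against 4 CR libraries remained, and on the deposited scale 1 channel gene was called lower (Clcn4), where 6.81% of all genes were, and 1 higher (Kcng4), where 0.431% were. Kcng4 rose by 1.35 ± 0.21 (log2, SE), with a limma adjusted p of 0.0268, beside 0.47 with all libraries. AL2 held its highest value, so leaving out AL2 moves the change upward. AL3 and AL4 held 4 and 10 reads of Kcng4. Relative to the typical gene its change was 1.45 ± 0.20 with a limma adjusted p of 0.0856, which did not pass. Kcnc4 changed by 1.05 ± 0.32 on the deposited scale (limma adjusted p = 0.095). The fit without AL2 after scaling was added after its values were seen. Muscle genes varied among these libraries too. Myh1 was at 3.41 and 1.59 TPM in AL3 and AL4 and at 7.82, 0.346, 0.325 and 9.80 TPM in CR1 to CR4. CR1 and CR4, highest in Myh1 outside AL2, were also the highest outside AL2 for Kcng4 and Kcnc4, while CR2 and CR3 had less Myh1 and more Kcng4 than AL3 and AL4. The summed muscle list was at 14.2 and 10.2 TPM in AL3 and AL4 and at 19.4 to 32.1 TPM in CR. Most of that sum in CR was Fbp2, at 14.5 to 22.1 TPM there against 4.69 and 4.31 TPM in AL3 and AL4. Chrnb1, the next highest gene, overlapped, at 4.41 and 3.93 TPM in AL3 and AL4 and 2.45 to 4.78 TPM in CR. The part of muscle RNA in the Kcng4 and Kcnc4 values was not tested.

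**Figure D5:**
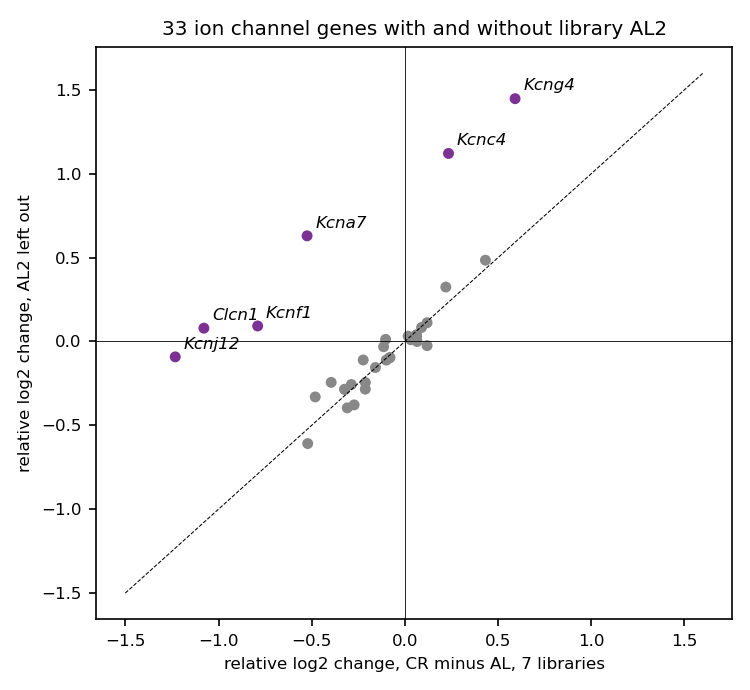
Relative change in log2(TPM + 1) from AL to CR for the 33 ion channel genes with all 7 libraries (horizontal axis) and with AL2 left out (vertical axis), with the line of equal values dashed. The 6 genes that were high in AL2 (purple, named) lie above the line and the other 27 (grey) lie along it.

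Channel and ion transport genes with other names were followed as companions of the 33. Of 105 listed genes 68 had a row and 37 were tested, of which 3 fell on the deposited scale and 0 rose, beside the same 11.6% and 0.392% of all genes. Lrrc8a, the essential subunit of the volume-regulated anion channel, was at 18.2, 21.3 and 19.7 TPM in AL and 13.7, 13.3, 10.8 and 13.3 TPM in CR (log2 change −0.59 ± 0.10, limma adjusted p = 0.0187). Orai1, the pore of store-operated calcium entry, was at 21.3, 15.3 and 20.01 TPM in AL and 12.4, 13.6, 10.7 and 13.3 TPM in CR (limma adjusted p = 0.0368). Ano8, an anoctamin at contacts of the endoplasmic reticulum with the cell membrane, was at 17.4, 17.6 and 23.7 TPM in AL and 13.3, 11.9, 13.1 and 12.2 TPM in CR (limma adjusted p = 0.0244). For these 3 genes all CR libraries lay below all AL libraries on the deposited scale, as for 26.4% of all tested genes. Relative to the typical gene the changes of Lrrc8a, Orai1 and Ano8 were −0.38, −0.34 and −0.37, and none was called. Without AL2 Orai1 no longer passed (limma adjusted p = 0.0995).

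Relative to the typical gene 0 companions were called, with 2 of 37 lower and 9 of 37 higher at an unadjusted p under 0.05, beside 11.3% and 13.4% of all genes. Tpcn1, a cation channel of endosomes and lysosomes, was at 39.1, 40.8 and 37.9 TPM in AL and 41.0, 42.5, 42.5 and 47.7 TPM in CR, with a relative change of 0.36 ± 0.06 (limma adjusted p = 0.0846). Mcoln1, a lysosomal cation channel, was at 19.2, 22.0 and 18.4 TPM in AL and 20.7, 20.8, 20.4 and 19.9 TPM in CR, with a relative change of 0.26 ± 0.07. Atp1b3, a beta subunit of the sodium-potassium pump, was at 188 to 224 TPM in AL and 206 to 237 TPM in CR, with a relative change of 0.35 ± 0.09 (limma adjusted p = 0.0902). Ano5, an anoctamin of muscle, was at 15.03 TPM in AL2 and at most 0.471 TPM elsewhere.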

How the data were processed

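The authors deposited TPM for each gene in each library. Beside them stands 1 FDR per gene, an adjusted p-value that the authors computed. Per the submitters' processing notes, the tools were STAR 2.7.10b, featureCounts 2.0.3, edgeR 3.38.4, FastQC 0.12.1 and SAMtools 1.17, and the build was GRCm39. Library preparation, per the labels' protocols, was directional, and they describe depletion of ribosomal RNA as well as selection of poly-A RNA. The annotation and the strand setting of the counting were not given in the sources used here. Columns were assigned to diets by name, and 0 columns were left without a group. That libraries came from separate mice is per the labels.

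Genes with a mean of at least 0.5 TPM were fitted with limma 3.58.1 in R 4.3.3 on log2(TPM + 1), with diet as the only term, trended variances and Benjamini-Hochberg adjustment over 12768 genes. A fold change on this scale understates the change of low genes. The fit was repeated after median-ratio scaling and under the alternatives in the closing section, and was tested on simulated data. Reads were recovered from TPM and GENCODE M21 exon lengths: 94.55% of 22044 rows judged, those with at most 1000 reads, were within 0.05 of whole numbers in every library. They served for depth and the voom fit. M21 is of build GRCm38 and gave names, lengths and overlaps, with no coordinate compared across builds.

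Any member could be named. Given in every library were the 2 highest genes of each family, those called, those with the smallest p after scaling, and the genes at the limit, and the companions with the smallest p or the highest mean. Others were named after their values were seen. Members, families and lists were chosen with earlier results of these data known. The longer muscle list and the fits without AL2 after scaling were chosen after the values were seen. Python 3.11.15 with pandas 2.3.3, numpy 2.4.6 and matplotlib 3.10.9 made the tables and plots. Some genes, among them 1 of the 33, are not reported here by name.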

Additional observations from a re-analysis of the deposited data

Results flagged for a closer look

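In the CR group of 4 libraries, each of the 33 genes was examined for 1 library far from the other 3 by Dixon's test at the 95% level. This held for 6 genes, beside a nominal rate of about 1 in 20. The share of all tested genes that this rule flags was not counted, so the 6 are not a result about channel genes as a group. Piezo1 was at 37.67 TPM in CR3 against 31.9 to 32.6 TPM in the other CR libraries. Clcn2 was at 2.829 TPM in CR3 against 4.00 to 4.18 TPM, and Clcn5 was at 2.135 TPM in CR1 against 3.24 to 3.36 TPM. Kcnq1 was at 1.612 TPM in CR2 against 0.853 to 0.946 TPM, P2rx3 at 0.2628 TPM in CR2 against 0.840 to 0.925 TPM, and Cacna2d3 at 0.6724 TPM in CR2 against 0.370 to 0.385 TPM. Reads were few for Kcnq1 (27 in CR2 against 11 to 15), P2rx3 (3 against 7 to 10) and Cacna2d3 (24 against 10 to 13). The rule was applied to the CR group only and therefore does not read the AL2 values.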

How the results depend on the processing

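No paired analysis was possible because the columns of the table do not carry the mouse numbers of the labels. Of 600 single-gene values under the alternatives (median-ratio scaling, quantile normalization, pseudocounts, filters, no variance trend, robust moderation, each library left out, voom on recovered reads, and scaling without AL2), 544 kept their direction and side of the threshold, 7 no longer passed it, 2 newly passed it and 47, in 14 genes, changed sign. The channel count of 1 went to 0 under median-ratio scaling, quantile normalization, no trend, voom and scaling without AL2, and to 0 to 2 with 1 library left out (0 without CR1 or CR2, 2 without AL2 or AL4, which added Kcng4 and P2rx1). The companion count of 3 went to 0 under the same 5 settings and to 0 to 2 with 1 library left out. The count over all genes went from 1534 to 7 under median-ratio scaling, 7 under quantile normalization, 742 without a filter, 8 without a trend, 0 under voom (3296 at an unadjusted p under 0.05), 12 under scaling without AL2, and 0 to 1104 with 1 library left out (0 without CR1, with 3230 at an unadjusted p under 0.05, and 1 without CR2). The adjusted p of Clcn4 was 0.128, 0.101, 0.0524 and 0.0903 under median-ratio scaling, quantile normalization, no trend and voom, 0.163 under scaling without AL2, and 0.0532 and 0.0564 without CR1 and CR2. P2rx1 passed without AL4 (limma adjusted p = 0.0375). The causes were not tested.

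The log2 changes that turned sign are given in the order median-ratio scaling, quantile normalization, voom and scaling without AL2. They were 0.090, 0.051, 0.085 and 0.083 for Clcn7, 0.063, 0.021, 0.068 and 0.027 for P2rx4, 0.032, 0.069, 0.044 and 0.010 for Clcn5, and 0.062, 0.142, 0.230 and 0.040 for Kcnq1ot1. Under the first 3 settings they were 0.119, 0.119 and 0.091 for Kcna5 and 0.065, 0.138 and 0.174 for Kcnc2. Kcnh4 was at 0.018 and 0.095 under the first 2 settings and 0.032 under scaling without AL2, which gave 0.012 for Kcnj8, 0.629 for Kcna7, 0.079 for Clcn1 and 0.092 for Kcnf1. Voom gave 0.804 for Kcna7, and a pseudocount of 5 TPM gave −0.072 for Kcnc4. With 1 library left out the changes ranged from −0.261 to 0.076 for Kcna5, −0.040 to 0.099 for Clcn3, −1.337 to 0.560 for Kcna7, −1.752 to 0.036 for Clcn1, −0.353 to 1.047 for Kcnc4, −1.275 to 0.088 for Kcnf1, −0.119 to 0.051 for Kcnc2, −0.191 to 0.097 for Kcnh4, −0.120 to 0.090 for Kcnq1ot1 and −0.135 to 0.218 for Cacnb4. Depth limits the low genes, 12 of which had under 50 reads in every library.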

Other observations

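Kcng4 was low in AL3 and AL4 and higher in the 4 CR libraries, and other genes of the table had this pattern too. They are named here after their values were seen. The share of all tested genes with this pattern was not counted, so it does not link Kcng4 to the genes named. Ucp1, the uncoupling protein of thermogenic fat cells, was at 6.20 TPM in AL2, 0.401 and 0.663 TPM in AL3 and AL4 and 2.79, 8.51, 6.78 and 7.16 TPM in CR1 to CR4. Fbp2, the muscle form of fructose bisphosphatase, was at 24.6, 4.69 and 4.31 TPM in AL and 17.2, 14.5, 15.3 and 22.1 TPM in CR. The sum of 5 measured genes of a list of 10 thermogenic genes was 67.2 to 78.9 TPM in AL and 53.1 to 86.2 TPM in CR, with overlap. Of these 5, Ucp1 alone had the pattern. Prdm16 went the other way, at 15.7 and 9.62 TPM in AL3 and AL4 and 6.60 to 9.55 TPM in CR. Ppara was at 16.25 and 11.4 TPM against 7.49 to 11.6 TPM. Plin5 was at 29.2 and 46.6 against 29.4 to 49.9 TPM, and Ppargc1a at 5.57 and 10.6 against 6.85 to 10.1 TPM.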
